A study of Mus musculus with 16 samples.

Results

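Undifferentiated spermatogonia are dividing germ cells among which the stem cells of sperm production are found. They were compared here between mice given the MEK inhibitor PD0325901 and mice given vehicle, over wild type and Spry4 germline knockout. All 16 mRNA libraries of the series entered the comparison, 8 with the inhibitor (column names holding PD8) and 8 without, and genotype was a term of the model. Each genotype gave 4 libraries to either arm. The adult mice of all 4 groups had received busulfan, a DNA-alkylating drug toxic to germ cells, at 10 mg/kg. Daily injections of PD0325901 at 2.5 mg/kg, or of vehicle (10% DMSO in PBS), began on day 3, continued for 7 days, and the cells were sorted on day 10. The wild-type columns carry the name Spry4ff and the knockout columns GCRT_Spry4KO. Since no wild-type name holds GCRT, what it denotes and Spry4 loss cannot be told apart. Whether each replicate is another animal is not in the labels, and p-values cover only library-to-library spread, which may be technical. The sort markers, the deleted part of Spry4, the mouse strain and the hours from last dose to collection are not stated in the labels.

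MEK1 and MEK2 are the kinases that phosphorylate and activate ERK, downstream of RAS and RAF. In spermatogonial stem cells the pathway is engaged by GDNF, made by Sertoli cells and bound by the receptors GFRA1 and RET, and by fibroblast growth factors. Its transcriptional targets include PEA3-type ETS factors such as Etv5, and feedback inhibitors such as the Dusp phosphatases and the Sprouty proteins. As cells leave the stem cell pool, they pass through a progenitor state marked by Neurog3 and Rarg, and then respond to retinoic acid and express Kit.

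No gene passed the adjusted threshold for the inhibitor difference. Levels were deposited as FPKM, fragment counts scaled to transcript length and library size. The test was limma on log2(FPKM + 0.5) with Benjamini-Hochberg adjustment, a threshold of 0.05, and 12907 genes at 1 FPKM or more in at least 4 libraries. By this test 0 genes (0%) passed, and limma's voom on reads recovered from the FPKM values also gave 0. Without adjustment 232 genes (1.80%) had p under 0.05, below 5%. Of these, 108 (0.837%) were higher with inhibitor and 124 (0.961%) were lower. The smallest unadjusted p was 5.12e-04, and every adjusted p rounded to 1. All log2 differences are inhibitor minus vehicle after adding 0.5 to each FPKM, and this shrinks the values of genes at about 1 FPKM or less.

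Large differences lay outside the intervals of most genes. The median difference was 0.01, with 7022 genes (54.4%) higher and 5885 lower. The standard error had a median of 0.10, and ran from 0.05 at the 5th percentile of genes to 0.33 at the 95th. For 12549 genes (97.2%) the 95% interval lay inside -1 to 1, so a log2 difference of 1 in either direction lay outside them. Gdpd3, a phosphodiesterase gene, was the 1 gene whose difference exceeded 1 in size (1.43, SE 0.60). It ranged from 0.461 to 18.2 FPKM with vehicle (median 8.93) and from 9.97 to 18.5 FPKM with inhibitor (median 14.1). The vehicle libraries alone thus spanned almost the whole range. Nme5 (-0.45, SE 0.15) was the 1 gene (0.00775% of those tested) whose arms did not overlap. Nme5 ran from 1.90 to 5.32 FPKM with vehicle (median 2.11) and from 1.36 to 1.87 FPKM with inhibitor (median 1.70). The values 1.87 and 1.90 FPKM are nearly equal. The 5.32 FPKM was in replicate 3 of the vehicle-treated knockout, and the other vehicle libraries reached at most 2.58 FPKM. Without that replicate the Nme5 difference was -0.31. Both genes were picked after their values were seen.

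Markers of undifferentiated spermatogonia were present in all libraries, beside a larger and uneven smooth muscle signal. Estimated library sizes ran from 23365800 to 36630700 reads, and 12257 to 12805 genes reached 1 FPKM. Zbtb16 (85.6 to 125 FPKM), Sall4 (50.6 to 82.9 FPKM) and Ddx4 (68.8 to 144 FPKM), which mark undifferentiated spermatogonia or germ cells, were detected in all 16 libraries, and the markers of all undifferentiated cells summed to 719 to 935 FPKM. Leukocyte Ptprc did not exceed 0.0331 FPKM, Adgre1 was at 0 in 5 libraries, and Sertoli cell Sox9 reached at most 0.679 FPKM. Other members of those lists were expressed, among them Cd14 up to 8.58 FPKM and Clu up to 11.5 FPKM. Summed levels were 7.52 to 16.1 FPKM for the macrophage and leukocyte list, 34.1 to 50.4 FPKM for Sertoli, 10.3 to 36.9 FPKM for Leydig and 41.4 to 100 FPKM for endothelial cells. Smooth muscle Acta2 was abundant and uneven, from 367 to 5100 FPKM. The summed peritubular myoid list ran from 1400 to 7760 FPKM with vehicle and from 1200 to 12000 FPKM with inhibitor, above the sum of the undifferentiated markers in every library. KO_vehicle 3 (knockout, vehicle, replicate 3) stood apart in spermatid transcripts, with a summed level of 3360 FPKM against 20.1 to 176 FPKM elsewhere. In such bulk libraries fewer cells of a type and less RNA per cell cannot be told apart. Spry4 was lower in the knockout over both arms by a log2 difference of -0.88 (SE 0.17, unadjusted p = 8.66e-05, limma adjusted p = 0.951), with 7.28 to 19.3 FPKM against 15.9 to 27.4 FPKM in wild type.

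The core of the kinase cascade was level between the arms. Its 27 listed components, from the adaptors Grb2 and Sos1 through RAS, RAF, MEK and ERK to the RSK kinases, ranged from -0.15 to 0.09 (median 0.02, 17 higher and 10 lower), and none had an unadjusted p under 0.05. Map2k1, which encodes MEK1, ran from 24.8 to 27.6 FPKM with vehicle and from 25.1 to 29.7 FPKM with inhibitor (0.00, SE 0.04). Map2k2, which encodes MEK2, stood at 0.08 (SE 0.09), and Mapk3, which encodes ERK1, at 0.04 (SE 0.08). Rasa1, a RAS GTPase-activating protein, had the most negative value (-0.15, SE 0.12). For the drug's own targets, the interval for Map2k1 ran from -0.09 to 0.10, and for Map2k2 from -0.11 to 0.28.

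Listed transcripts of ERK pathway output did not shift in 1 direction in these bulk libraries at this time point. Of 22 tested members of the ERK pathway output list, 12 were higher and 10 lower, with a median of 0.02 against 0.01 for all genes tested. None passed the adjusted threshold, and 1 (4.55%) had an unadjusted p under 0.05, where 1.80% of all genes did. That gene was Il17rd, which encodes the feedback inhibitor SEF. Il17rd ran from 9.21 to 11.6 FPKM with vehicle (median 10.7) and from 8.41 to 10.7 FPKM with inhibitor (median 9.38), a difference of -0.14 (SE 0.05, unadjusted p = 0.0162). All 8 inhibitor libraries lay below the vehicle median, although the arms overlapped. The median of the ERK pathway output list was -0.18 in the 8 libraries of lower number and 0.13 in the 8 of higher number.

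Dusp6, a phosphatase of ERK and a commonly used readout of MEK inhibition, had a lower median with inhibitor but overlapping arms. With vehicle it was 38.7, 34.8, 43.4 and 52.4 FPKM in wild type and 51.3, 50.9, 51.0 and 51.3 FPKM in the knockout. With inhibitor it was 37.7, 50.1, 40.3 and 30.3 FPKM in wild type and 52.4, 49.7, 37.7 and 43.2 FPKM in the knockout. The arms shared most of their range, although 7 of 8 inhibitor libraries lay below the vehicle median. The medians were 50.9 FPKM with vehicle and 41.8 FPKM with inhibitor. The difference was -0.14 (SE 0.10, interval -0.35 to 0.08). In the 8 libraries of lower number it was 0.12, and in the 8 of higher number -0.39. Etv5, an ETS factor needed for stem cell maintenance, ran from 37.3 to 64.9 FPKM with vehicle (median 52.6) and from 34.7 to 56.2 FPKM with inhibitor (median 47.4). Its difference was -0.16 in each genotype and -0.16 pooled (SE 0.09, unadjusted p = 0.0869). In wild type the extremes were WT_vehicle 4 (55.6 FPKM) and WT_PD 4 (34.7 FPKM). The other wild-type libraries were 37.3 to 48.4 FPKM with vehicle and 40.8 to 48.5 FPKM with inhibitor. Of the other ETS factors and feedback inhibitors, Etv4 stood at 0.13 (SE 0.12), Spry2 at 0.10 (SE 0.25), Spry4 at 0.07 (SE 0.17) and the ERK phosphatase Dusp4 at -0.28 (SE 0.15). Etv4 differed in sign between genotypes (-0.15 in wild type and 0.41 in the knockout, interaction unadjusted p = 0.0130, limma adjusted p = 0.999).

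Immediate early genes, which respond to ERK and to many stresses, mostly differed in sign between genotypes. The list median was 0.09 (15 of 22 higher) in the pooled fit. It was -0.28 in wild type, with 21 of 22 members lower, and 0.38 in the knockout, with 3 lower. In the 8 libraries of lower number it was -0.23, and in the 8 of higher number 0.40. The EGR members stood apart from the list, since Egr1 (-0.36, SE 0.15, unadjusted p = 0.0314), Egr2 (-0.25, SE 0.12, unadjusted p = 0.0565) and Egr3 (-0.29, SE 0.13, unadjusted p = 0.0458) were all lower. Egr1, a zinc finger factor induced by ERK, ran from 81.6 to 181 FPKM with vehicle (median 137) and from 87.2 to 124 FPKM with inhibitor (median 103). Its 8 inhibitor libraries all lay below the vehicle median, and its difference was -0.58 in wild type and -0.13 in the knockout (interaction unadjusted p = 0.142). Fos, the AP-1 subunit, varied more within an arm than between arms, from 177 to 576 FPKM with vehicle and from 243 to 874 FPKM with inhibitor (0.11, SE 0.30). Medians of the peritubular myoid list had the same signs as those of the immediate early list. They were -0.44 in wild type, 0.67 in the knockout, -0.59 in the 8 libraries of lower number and 0.76 in the 8 of higher number. The part of uneven smooth muscle signal in the immediate early values of each genotype or set was not tested.

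Stem cell genes leaned lower with inhibitor in nearly every member of the pooled fit, by amounts that did not pass the test. Of 19 tested members of the 20 listed, 18 had a negative difference, with a median of -0.16 against 0.01 over all genes. None passed the adjusted threshold, and 6 had an unadjusted p under 0.05, all lower, where 0.961% of all genes did. The median was -0.20 in wild type and -0.17 in the knockout, and -0.16 without Mcam and Plvap, which vascular and smooth muscle cells also express. It ran from -0.22 without KO_vehicle 1 to -0.12 without WT_vehicle 4. It was 0.07, with 5 of 19 members lower, in the 8 libraries of lower number and -0.45, with 17 of 19 lower, in the 8 of higher number. The list was assembled with earlier results from these libraries known, so its direction is a description and not independent evidence.

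T (brachyury, ENSMUSG00000062327, GRCm38 chromosome 17, 8434423 to 8442496, plus strand), a T-box factor of the GDNF response, had the most negative value of the list. With vehicle it was 8.41, 6.45, 8.39 and 12.7 FPKM in wild type and 8.62, 13.1, 13.6 and 13 FPKM in the knockout. With inhibitor it was 8.06, 5.92, 6.0 and 3.34 FPKM in wild type and 7.47, 9.63, 5.58 and 9.34 FPKM in the knockout. All 8 inhibitor libraries were below the vehicle median of 10.7 FPKM, but the arms overlapped between 6.45 and 9.63 FPKM. The difference was -0.59 (SE 0.17, unadjusted p = 0.00381), with -0.60 in wild type and -0.57 in the knockout. In wild type the widest gap was between WT_vehicle 4 (12.7 FPKM) and WT_PD 4 (3.34 FPKM).

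Shisa6, a membrane protein that marks a subset of stem cells and dampens WNT signalling, followed the same order at a low level. Shisa6 (ENSMUSG00000053930, chromosome 11, 66211725 to 66525964, minus strand) ran from 0.534 to 2.28 FPKM with vehicle (median 1.12) and from 0.405 to 0.886 FPKM with inhibitor (median 0.585). Its difference was -0.53 (SE 0.14, unadjusted p = 0.00174), and at this level the log2(FPKM + 0.5) scale shrinks it. Eomes, another T-box factor, was 3.96 to 8.85 FPKM with vehicle (median 6.64) and 3.54 to 6.29 FPKM with inhibitor (median 4.99), a difference of -0.36 (SE 0.14). Lhx1, a LIM homeobox factor induced by GDNF, stood at -0.40 (SE 0.17), with -0.66 in wild type and -0.15 in the knockout. The homeobox gene Pdx1 stood at -0.29 (SE 0.12).

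The receptors for GDNF were lower by smaller amounts. Ret, the signalling subunit, ran from 57.3 to 98.8 FPKM with vehicle (median 81.5) and from 54.2 to 80.0 FPKM with inhibitor (median 71.3), a difference of -0.23 (SE 0.09, unadjusted p = 0.0237). All 8 inhibitor libraries lay below the vehicle median. Gfra1, the ligand-binding subunit, ran from 36.7 to 58.9 FPKM with vehicle (median 42.6) and from 29.8 to 49.3 FPKM with inhibitor (median 36.5). Its difference was -0.21 (SE 0.11, unadjusted p = 0.0818), with -0.19 in wild type and -0.23 in the knockout. The wild-type libraries did not move together. WT_PD 1 and WT_PD 2 (49.3 and 46.7 FPKM) were above WT_vehicle 1 and WT_vehicle 2 (36.7 and 40.2 FPKM). WT_PD 3 and WT_PD 4 (36.8 and 34.1 FPKM) were below WT_vehicle 3 and WT_vehicle 4 (55.9 and 58.9 FPKM). Over the 13 tested receptors for GDNF, FGF, KIT ligand and related factors the median was 0.06, with 8 members higher. Nanos2, the RNA-binding stem cell factor, was 3.60 to 6.59 FPKM with vehicle and 3.49 to 5.99 FPKM with inhibitor (-0.03, SE 0.12). In the stem cell list Egr4, a zinc finger factor, was the 1 member with a positive value (0.22, SE 0.11).

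The GDNF-responsive list, which shares T, Eomes, Lhx1, Etv5 and others with the stem cell list, had 13 of 16 members lower and a median of -0.18. Unadjusted p was under 0.05 for 5 members lower (T, Eomes, Lhx1, Egr3 and the neurofilament gene Nefl at -0.20, SE 0.09) and for 1 higher. Of all genes tested, 0.961% were lower and 0.837% higher by that measure, and T, Eomes and Lhx1 were already counted in the stem cell list. The 1 higher member was Mycn, a MYC family factor that promotes growth, at 5.78 to 12.3 FPKM with vehicle (median 9.76) and 8.65 to 14 FPKM with inhibitor (median 11.8). Its difference was 0.30 (SE 0.13, unadjusted p = 0.0342). Markers of all undifferentiated cells showed less lean, with 10 of 17 lower and a median of -0.04. Zbtb16 stood at 0.00 (SE 0.08), and Sall4, a zinc finger factor of these cells, at -0.17 (SE 0.08, unadjusted p = 0.0486).

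**Figure D1:**
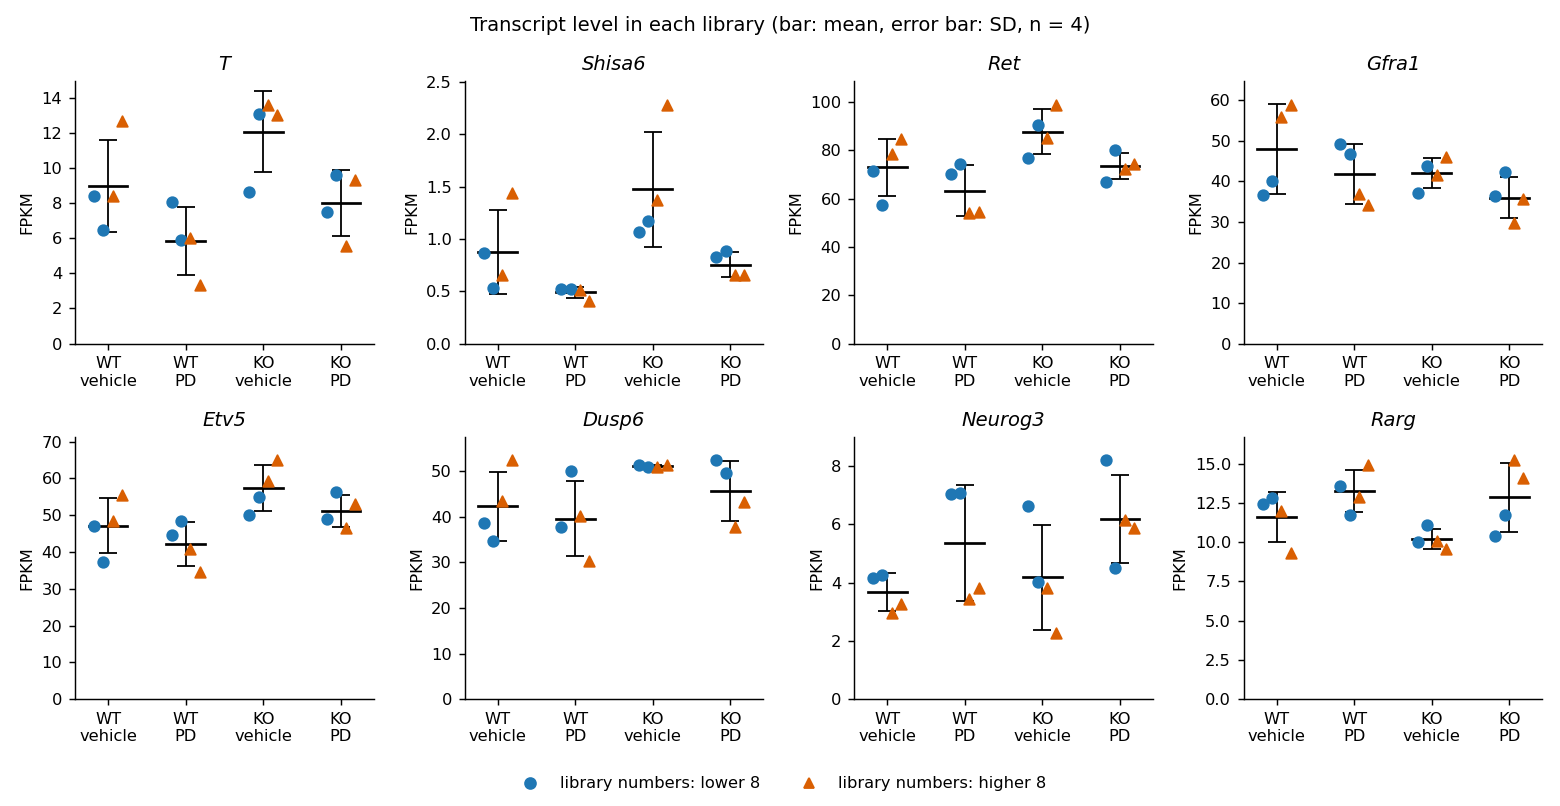
FPKM of 8 genes in each library, by genotype and arm, with group means and SD (n = 4) and libraries drawn by library number. T, Shisa6 and Ret lie mostly lower and Neurog3 and Rarg mostly higher with inhibitor, and the arms overlap for every gene shown (T spans 3.34 to 9.63 FPKM with inhibitor and 6.45 to 13.6 FPKM with vehicle).

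Progenitor genes leaned the other way in the pooled fit and in wild type. Of 12 members 10 were higher, with a median of 0.09, and none passed the adjusted threshold. An unadjusted p under 0.05 was found for 2, both higher, where 0.837% of all genes were. The median was 0.13 in wild type and 0.02 in the knockout, where 6 of 12 members were lower. It was 0.02 without WT_PD 1, 0.03 without WT_PD 2 and 0.05 without KO_vehicle 4, and was 0.16 without KO_vehicle 2 and 0.17 without WT_PD 3. Neurog3 (ENSMUSG00000044312, chromosome 10, 62133090 to 62134763, plus strand), a helix-loop-helix factor of cells leaving the stem cell state, had the most positive value. With vehicle it was 4.17, 4.27, 2.96 and 3.25 FPKM in wild type and 6.62, 4.01, 3.83 and 2.27 FPKM in the knockout. With inhibitor it was 7.03, 7.09, 3.43 and 3.83 FPKM in wild type and 8.19, 4.51, 6.14 and 5.87 FPKM in the knockout. In 6 of 8 inhibitor libraries Neurog3 was above the vehicle median of 3.92 FPKM, and KO_vehicle 1, at 6.62 FPKM, exceeded 5 of the 8 inhibitor libraries. The difference was 0.50 (SE 0.19, unadjusted p = 0.0199), with 0.44 in wild type and 0.57 in the knockout.

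Rarg, the retinoic acid receptor that makes progenitors competent to differentiate, ran from 9.28 to 12.8 FPKM with vehicle (median 10.6) and from 10.4 to 15.2 FPKM with inhibitor (median 13.3). Its difference was 0.25 (SE 0.09, unadjusted p = 0.00985), and 7 of 8 inhibitor libraries were above the vehicle median. The progenitor factors Sox3 (0.22, SE 0.12) and Sohlh1 (0.17, SE 0.09) had positive values with an unadjusted p above 0.05. Genes of differentiating spermatogonia were higher in 11 of 13 members, with a median of 0.12 in the pooled fit, 0.12 in wild type and 0.13 in the knockout. It was 0.05 without WT_PD 4. Crabp1, a retinoic acid binding protein, was the 1 member (7.69%) with an unadjusted p under 0.05, where 1.80% of all genes had one. Crabp1 ran from 33.6 to 52.2 FPKM with vehicle and from 40.5 to 65.6 FPKM with inhibitor (0.25, SE 0.11, unadjusted p = 0.0340). Stra8, a retinoic acid target that precedes meiosis, stood at 0.27 (SE 0.19), Uchl1 at 0.19 (SE 0.09) and Kit, the receptor of differentiating cells, at 0.15 (SE 0.16). The retinoic acid list, which holds Rarg, Crabp1 and Stra8 too, was higher in 12 of 13 members with a median of 0.06, which ran from 0.02 without WT_PD 3 to 0.20 without WT_PD 1.

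**Figure D2:**
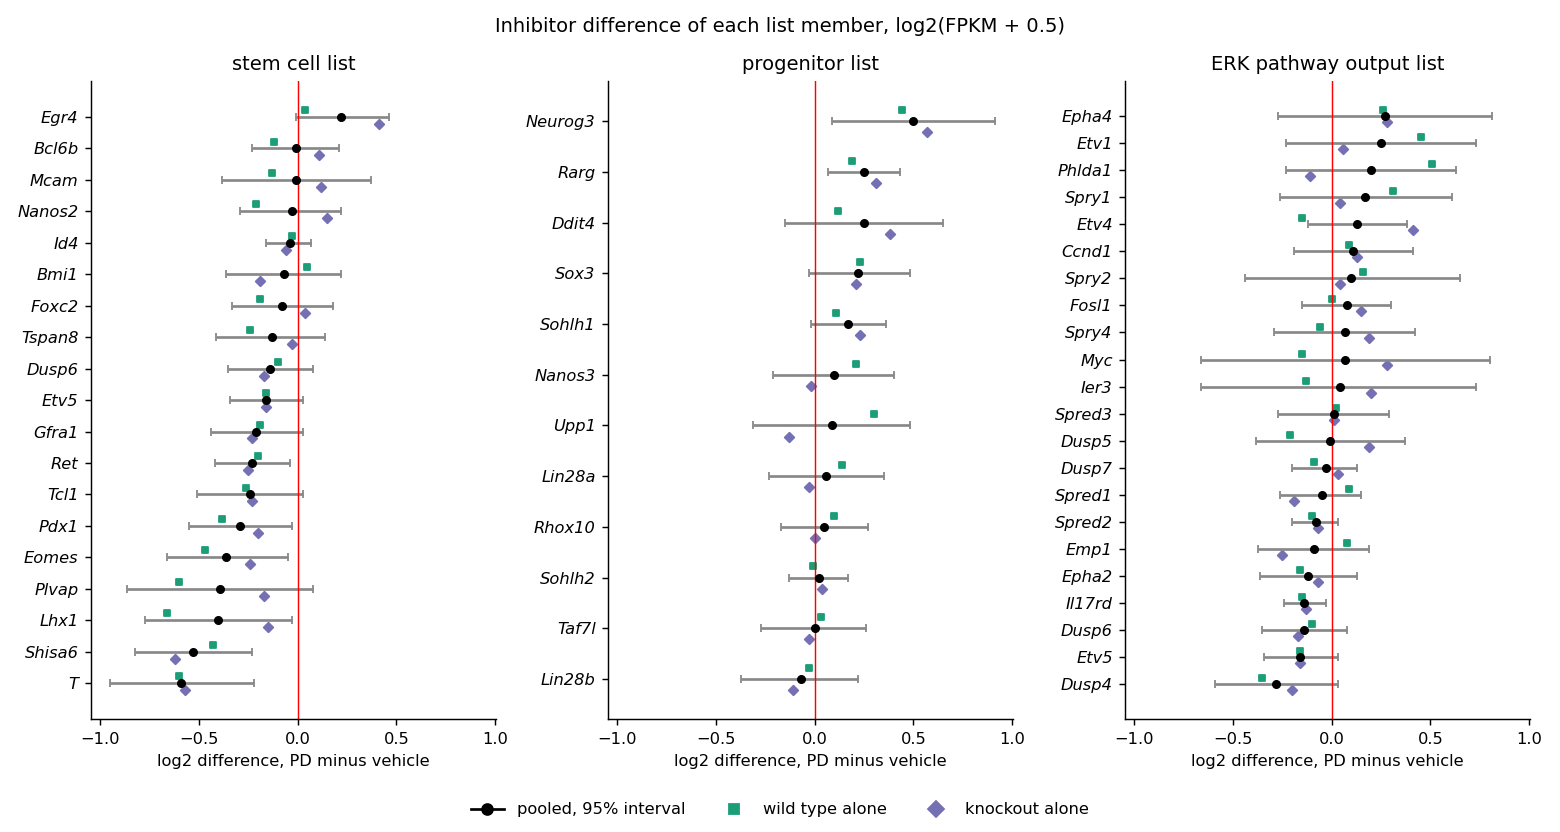
Log2 difference, inhibitor minus vehicle, of each tested member of the stem cell, progenitor and ERK pathway output lists, pooled with its 95% interval (black) and in each genotype alone. In the stem cell list 18 of 19 points lie below 0 and in the progenitor list 10 of 12 lie above 0, while the ERK output list is divided 12 to 10.

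Promoter sequence is given for the most negative stem cell gene, the most positive progenitor gene and the ERK readout Dusp6. Each covers 250 bases before and 50 after the start of the gene in RefSeq on GRCm38.p6, written 5′ to 3′ on the gene's plus strand. They span chr17:8434173-8434472 for T, chr10:62132840-62133139 for Neurog3 and chr10:99262981-99263280 for Dusp6. Capitals mark matches to the ETS site CCGGAA or its reverse TTCCGG, a kind of site PEA3 factors bind, or to the AP-1 site TGANTCA, the kind Fos and Jun bind. Only these exact letters were searched, so the shorter GGAA, which the T and Dusp6 windows hold, was not marked.
T: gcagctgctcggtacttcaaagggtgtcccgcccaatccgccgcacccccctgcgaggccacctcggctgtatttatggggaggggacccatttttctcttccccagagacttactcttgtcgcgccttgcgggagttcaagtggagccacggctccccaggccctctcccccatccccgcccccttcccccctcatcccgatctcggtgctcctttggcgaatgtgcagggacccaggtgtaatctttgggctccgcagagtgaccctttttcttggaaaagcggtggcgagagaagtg
Neurog3: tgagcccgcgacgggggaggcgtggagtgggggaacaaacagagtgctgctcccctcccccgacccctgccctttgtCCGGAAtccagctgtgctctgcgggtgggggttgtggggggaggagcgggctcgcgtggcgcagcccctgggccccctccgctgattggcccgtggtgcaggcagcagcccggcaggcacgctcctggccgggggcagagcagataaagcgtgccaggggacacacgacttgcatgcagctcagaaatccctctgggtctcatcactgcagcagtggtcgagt
Dusp6: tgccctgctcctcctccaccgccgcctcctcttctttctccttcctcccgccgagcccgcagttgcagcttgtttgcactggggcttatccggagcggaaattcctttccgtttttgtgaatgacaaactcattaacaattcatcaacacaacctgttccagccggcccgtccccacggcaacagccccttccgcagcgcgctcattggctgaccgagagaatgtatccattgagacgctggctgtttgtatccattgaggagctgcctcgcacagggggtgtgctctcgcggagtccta
Neurog3 held 1 match to CCGGAA, and no other match to the searched letters was found in these windows. A match is a description and not a bound site. Among 27025 mouse promoters of the same length, 15.2% held CCGGAA or its reverse and 7.9% the AP-1 site. In all 7 promoters were searched, after the values were seen: these and those of Dmrt2, Lhx1, Etv5 and Rspo1. CCGGAA or its reverse was found in 1 of the 7 and the AP-1 site in 0.

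The genes of smallest p included developmental regulators on both sides. Rspo1 (ENSMUSG00000028871, chromosome 4, 124986430 to 125009099, plus strand), a secreted enhancer of WNT signalling, led the higher genes. It ran from 0.772 to 1.5 FPKM with vehicle (median 1.28) and from 1.28 to 2.58 FPKM with inhibitor (median 2.05), a difference of 0.53 (SE 0.12, unadjusted p = 5.12e-04). The overlap was slight, since 7 of the 8 inhibitor libraries exceeded the highest vehicle library. Sntg2, a syntrophin, stood at 0.47 (SE 0.13), at 0.551 to 1.47 FPKM with vehicle and 1.11 to 2.42 FPKM with inhibitor. The RNA lariat debranching enzyme Dbr1 had a small difference with a small error (0.16, SE 0.04, from 5.01 to 6.09 FPKM with vehicle to 5.65 to 6.64 FPKM with inhibitor). The others of the 10 smallest p on this side were Lbhd2 (0.44), Cntfr, the receptor for ciliary neurotrophic factor (0.31), Tet3, a 5-methylcytosine dioxygenase (0.30), the amino acid transporter Slc43a1 (0.28), Uap1l1 (0.27), the phosphodiesterase Pde4c (0.24) and Zfp747 (0.22).

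Among lower genes, the zinc finger factor Zic1 (ENSMUSG00000032368, chromosome 9, 91358058 to 91365810, minus strand) had the largest size among the 10 of smallest p. Zic1 ran from 4.27 to 11.5 FPKM with vehicle (median 7.94) and from 1.75 to 8.01 FPKM with inhibitor (median 3.63), a difference of -0.78 (SE 0.24, unadjusted p = 0.00503). In 7 of 8 inhibitor libraries it lay below the vehicle median. Dmrt2, a DM-domain transcription factor, ran from 8.99 to 20.4 FPKM with vehicle and from 5.53 to 12.2 FPKM with inhibitor (-0.60, SE 0.16), with -0.35 in wild type and -0.86 in the knockout (interaction unadjusted p = 0.124). The diacylglycerol kinase Dgkk stood at -0.47 (SE 0.12) and the tyrosine phosphatase Ptpn13 at -0.41 (SE 0.11). Shisa6 and T belonged to the same 10, with the potassium channel Kcnc2 (-0.37), Cfap92 (-0.31), the cilium gene Bbs5 (-0.25) and Lins1 (-0.22). Most of these were lower mainly in the 8 libraries of higher number. In the lower and higher 8, Dgkk stood at -0.19 and -0.75, Ptpn13 at -0.13 and -0.68, and Dmrt2 at -0.28 and -0.92. Kcnc2 stood at -0.07 and -0.67, Lins1 at -0.06 and -0.39, and Shisa6 at -0.24 and -0.81. Values were closer for Zic1 (-0.85 and -0.72), Bbs5 (-0.21 and -0.29) and Cfap92 (-0.21 and -0.40).

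Proliferation, growth and damage-response genes had medians close to 0 in the pooled fit. The median was -0.01 for 27 DNA replication genes and -0.01 for 23 mitosis genes, with no unadjusted p under 0.05 in either list. Mki67, the proliferation antigen, ran from 25.4 to 40.9 FPKM with vehicle and from 27.8 to 44.5 FPKM with inhibitor (0.05, SE 0.11). The D-type cyclins Ccnd1 (0.11, SE 0.14) and Ccnd2 (0.02, SE 0.06) and the inhibitor Cdkn1a (0.16, SE 0.34) were within their errors. Medians were 0.03 for p53 targets, 0.01 for apoptosis regulators, -0.06 for crosslink repair, 0.02 for MYC and ribosome biogenesis, 0.04 for G1 regulators, 0.04 for oxidative phosphorylation, 0.07 for glycolysis and 0.05 for ATF4 targets. Crosslink repair genes were lower in 21 of 28 members and oxidative phosphorylation genes higher in 14 of 17. Some of these lists differed between the genotypes. Oxidative phosphorylation genes were lower in 12 of 17 members in wild type and in 1 in the knockout. DNA replication genes were lower in 21 of 27 and in 9, and ATF4 targets in 12 of 16 and in 2. Crosslink repair genes were lower in 17 of 28 in wild type and in 21 in the knockout. Cholesterol synthesis genes were lower in 16 of 20 members, by a median of -0.08, and none had an unadjusted p under 0.05.

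Few members of the growth and signalling lists had an unadjusted p under 0.05, as did 1.80% of all genes. Shisa6 (-0.53) was the 1 such member of the WNT list, and Mycn (0.30) belonged to the MYC list. The stress-response gene Sesn2 stood at -0.15 (SE 0.06), the apoptosis initiator Casp9 at -0.12 (SE 0.06), the desaturase Scd1 at -0.20 (SE 0.09) and the ribosome assembly factor Bop1 at 0.10 (SE 0.04). The BMP signalling inhibitor Smad6 (-0.30, SE 0.14) and the interferon-stimulated gene Rsad2 (-0.30, SE 0.13) were the only such members of their lists. Medians of the signalling lists were 0.02 for BMP, activin and TGF-beta, 0.02 for WNT, 0.01 for interferon response and 0.01 for quiescence and FOXO targets. DNA methylation genes stood at 0.06 and piRNA genes at -0.01. Meiotic genes were lower in 15 of 21 members, with a median of -0.07 and no unadjusted p under 0.05. Leaving out a single library gave a meiotic median from -0.13 (without WT_PD 1) to 0.01 (without KO_vehicle 3). It was 0.13 in the libraries of lower number and -0.26 in those of higher number.

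Lists of other cell types moved with single libraries. All 14 tested spermatid genes were lower with inhibitor, by a median of -0.67, and none had an unadjusted p under 0.05. Odf1, a sperm tail protein, ran from 0.387 to 121 FPKM with vehicle and from 0.248 to 5.33 FPKM with inhibitor (-0.82, SE 0.85). Without KO_vehicle 3 the spermatid median was 0.01, and Odf1 stood at -0.08. Endothelial genes had a median of -0.22, which was -0.03 without KO_vehicle 3. The vascular growth factor receptors Kdr (-0.30, SE 0.13) and Flt1 (-0.25, SE 0.11) were the endothelial members with an unadjusted p under 0.05. These were 22.2% of the endothelial list, against 1.80% of all genes. Peritubular genes had a median of 0.11, with -0.44 in wild type and 0.67 in the knockout. Acta2 stood at 0.03 (SE 0.55), with 538 to 3150 FPKM with vehicle and 367 to 5100 FPKM with inhibitor, and Myh11 at 0.08 (SE 0.51). Col1a1, a fibrillar collagen, was the 1 peritubular member (8.33%, against 1.80% of all genes) with an unadjusted p under 0.05 (0.29, SE 0.12). The stem cell median was -0.15 without KO_vehicle 3, and also -0.15 with the peritubular and spermatid means as terms of the model. Since the peritubular list differed little between the pooled arms, its term could change a pooled value only slightly. Its part within each genotype or number set was not tested.

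The genotypes were then set side by side, since a pooled value can average unlike differences. No gene passed limma's adjusted test of the difference between genotypes, and 1.71% of genes had an unadjusted p under 0.05. Across the 12907 genes the differences in wild type and knockout, which share no library, had r = -0.30 and rho = -0.17 and the same sign for 45.1% of genes. These are descriptions across genes, which are not independent replicates, and the 2 sets of differences share normalisation and gene lengths. Lists differed in this respect. In the stem cell list 73.7% of members had the same sign in both genotypes, and in the GDNF-responsive list 68.8%. Other lists were as high, with 70.6% for markers of all undifferentiated cells, 69.2% for differentiating spermatogonia and 64.3% for crosslink repair. The spermatid list had 100%, although its pooled median was 0.01 without KO_vehicle 3. The share was 50% in the progenitor list, 18.2% in the immediate early list and 25% in the peritubular list.

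The 16 libraries carry consecutive numbers in their column names, and the lower 8 (440 to 447) and higher 8 (448 to 455) each hold 2 libraries of every group. The labels do not call these sets batches. Differences in the lower and higher sets, which share no library, had r = -0.64 and rho = -0.60 across the 12907 genes, and 29.5% of genes had the same sign. No gene passed limma's adjusted test of the difference between the sets (smallest adjusted p = 0.395), whereas 1446 genes (11.2%) had an unadjusted p under 0.05. This test was added after the values were seen. The lean of the stem cell genes came mainly from the higher set, where the median was -0.45 and 17 of 19 members were lower, against 0.07 and 5 of 19 in the lower set. The GDNF-responsive median was 0.05 in the lower set and -0.39 in the higher. Gfra1 stood at 0.14 and -0.55 (unadjusted p of the difference = 2.97e-04), Ret at -0.01 and -0.45, and Lhx1 at 0.10 and -0.90. T stood at -0.20 and -0.97, Etv5 at 0.07 and -0.39, and Dusp6 at 0.12 and -0.39. The peritubular median moved in the opposite direction, with -0.59 in the lower set and 0.76 in the higher, and its part in the stem cell result within each set was not tested.

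For some members the values in the 2 sets were close. Neurog3 stood at 0.45 in the lower set and 0.55 in the higher (unadjusted p of the difference = 0.742), Mycn at 0.25 and 0.35, Zic1 at -0.85 and -0.72, and Egr1 at -0.35 and -0.37. The progenitor median was 0.08 and 0.11, and that of the differentiating list 0.14 and 0.12. Values were further apart for Rspo1 (0.37 and 0.69, unadjusted p of the difference = 0.200) and Rarg (0.03 and 0.47, unadjusted p of the difference = 0.00622, limma adjusted p = 0.395).

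**Figure D3:**
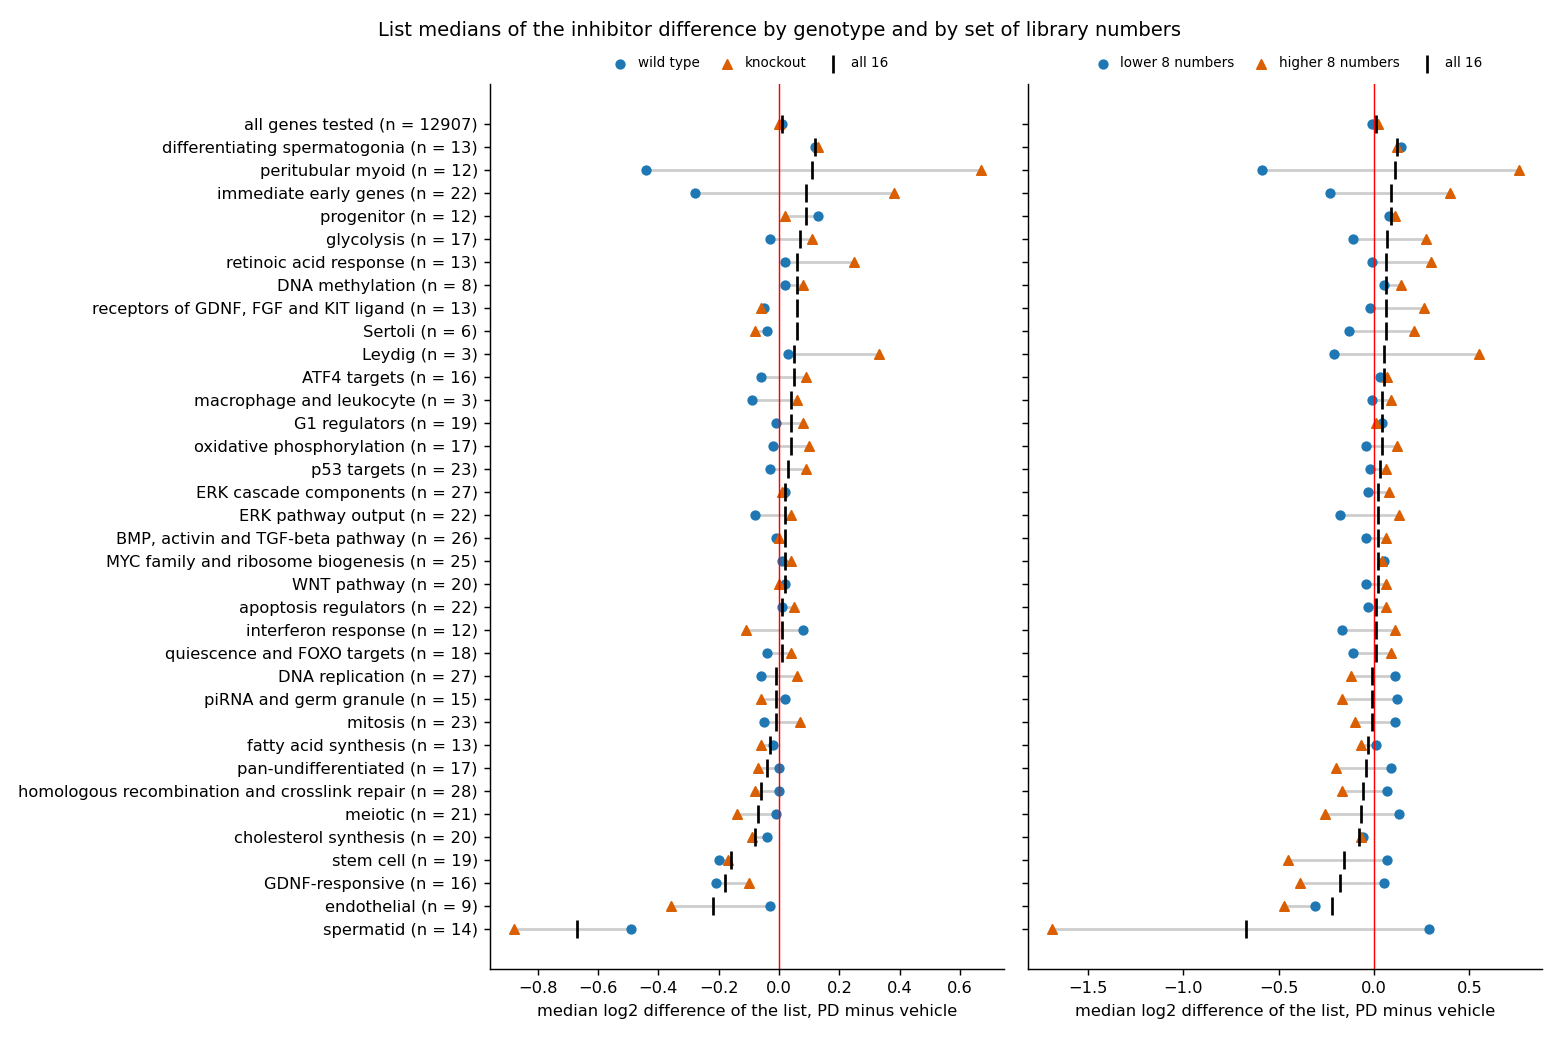
Median log2 difference, inhibitor minus vehicle, of each gene list in wild type and knockout (left) and in the lower and higher 8 library numbers (right), with the pooled median as a black bar. The stem cell median is near -0.2 in both genotypes but 0.07 and -0.45 in the number sets, and the peritubular median differs in sign in both panels.

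**Figure D4:**
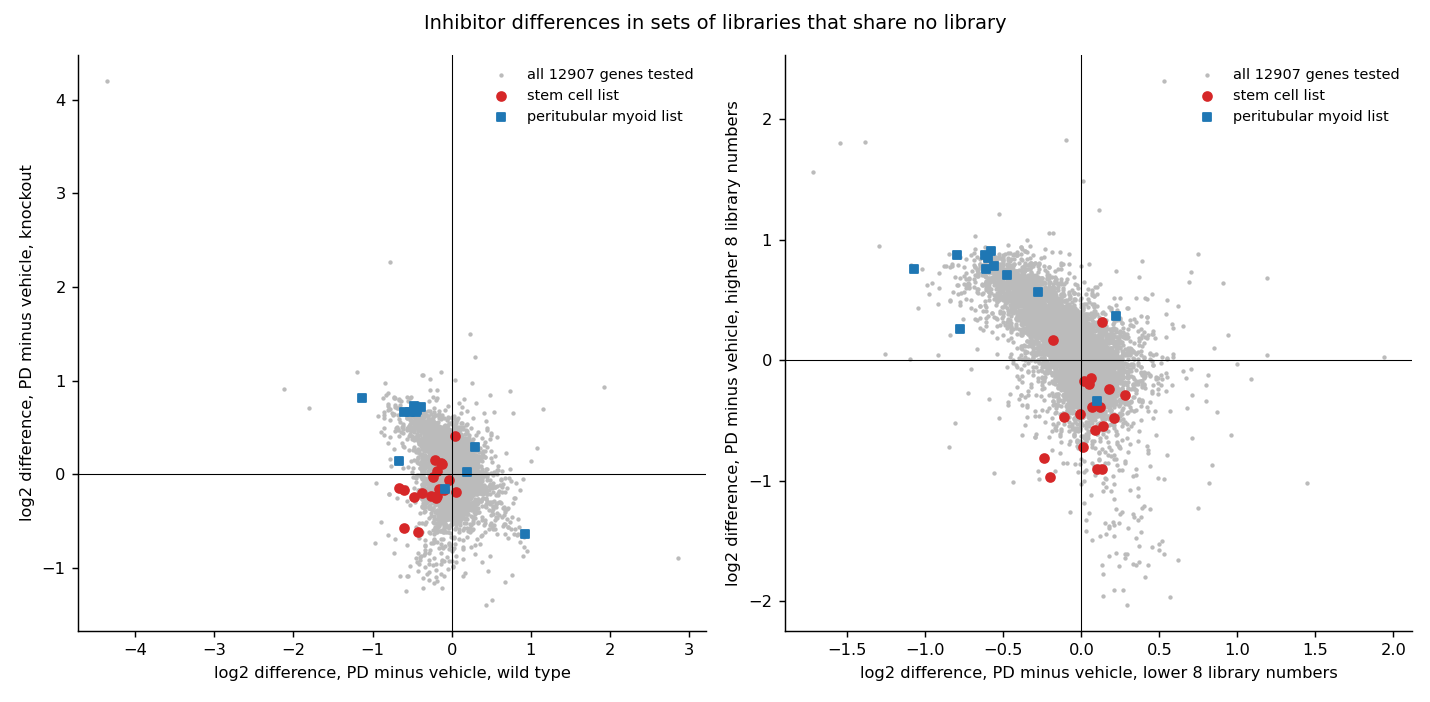
Log2 difference of every tested gene in wild type against knockout (left) and in the lower against the higher 8 library numbers (right), each pair sharing no library, with stem cell and peritubular genes marked. Points run from upper left to lower right (r = -0.30 and r = -0.64).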

How the data were processed

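Transcript levels were measured by stranded polyA RNA sequencing in 16 libraries, 4 per group. The deposited values are FPKM, computed by the authors per the labels. Per the submitters' processing notes, the tools were STAR 2.7.10a, edgeR 4.0.14 and FastQC, and the builds mm10 and GRCm39, with no role stated for either. The counter, the gene lengths and any scaling between libraries are not stated there.

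Of 16383 genes, 12907 reaching 1 FPKM in 4 or more libraries entered the test and 3476 were left out. limma 3.58.1 in R 4.3.3 was fitted to log2(FPKM + 0.5) with terms for genotype and inhibitor and variances moderated with a trend on mean level. Adjustment was by Benjamini-Hochberg with 0.05 as the threshold. The script was tested on simulated data. Group means gave the difference in each genotype and the interaction. FPKM times GENCODE M21 exon length gave estimated library sizes, and at these 93.0% to 94.3% of read values below 100 were whole to within 0.1. Whether these sizes hold a scaling factor besides depth is not known. Gene identifiers and positions are from GENCODE M21 on GRCm38, in which 15771 symbols (96.3%) were found.

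Genes named were 17 anchors, the 10 genes of smallest p in each direction without predicted genes and pseudogenes, and up to 3 members of smallest p per list. Lhx1, Pdx1, Nefl, Egr4, Sox3, Acta2, Myh11, Map2k1, Map2k2, Mapk3, Gdpd3 and Nme5 were named outside this rule, after their values were seen. The 36 lists, which hold 622 genes, and the comparison itself were chosen with earlier results of these data known. No erythrocyte gene passed the filter. Lists are described by counts and medians, without a set test. Alternatives covered the pseudocount, filter, scaling, covariates, weights, variance model, voom, number sets and left-out libraries.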

Additional observations from a re-analysis of the deposited data

Results flagged for a closer look

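In groups of 4 libraries, a single library stood far from the other 3 in 13 of 304 groups examined (76 genes in 4 groups), by the gap to its nearest neighbour relative to the group's range on the log2 scale. Chance gives about 1 in 20.

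In vehicle-treated wild type, Ccnd2 was 61.5 FPKM in WT_vehicle 4 against 50.5 to 51.8 FPKM in the others. WT_vehicle 2 was low in Lins1 (4.15 against 4.81 to 4.88 FPKM), in Tssk6 (0.256 against 0.943 to 1.07 FPKM) and in Casp9 (17.6 against 19.6 to 19.9 FPKM). In inhibitor-treated wild type, Shisa6 was 0.405 FPKM in WT_PD 4 against 0.512 to 0.518 FPKM. WT_PD 3 was high in Bbs5 (3.27 against 2.44 to 2.52 FPKM) and in Scd1 (2.30 against 1.75 to 1.83 FPKM).

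In the vehicle-treated knockout, KO_vehicle 1 was low in T (8.62 against 13 to 13.6 FPKM) and high in Egr3 (6.85 against 5.04 to 5.23 FPKM). Il17rd was 10.5 FPKM in KO_vehicle 2 against 11 FPKM in the others. Tssk6, a spermatid kinase, was 44.4 FPKM in KO_vehicle 3 against 0.261 to 0.501 FPKM. Cdkn1a was 18.5 FPKM in KO_vehicle 4 against 6.16 to 7.41 FPKM. In the inhibitor-treated knockout, Flt1 was 1.40 FPKM in KO_PD 2 against 1.20 to 1.22 FPKM.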

How the results depend on the processing

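The count past the adjusted threshold was 0 in the main limma fit and in the 34 alternatives run for it. The share of genes tested with an unadjusted p under 0.05 moved more. The share higher (0.837%) was 1.33% with the number set as a term, 1.98% with peritubular and spermatid means as terms, 1.87% with array weights, 0.369% by voom, 1.31% and 2.97% within the lower and higher 8 numbers, and 0.474% without WT_vehicle 4 and WT_PD 4 (the columns with over 4 decimals, added after seeing the data). Leaving out 1 library gave 0.543% (without KO_PD 3) to 1.54% (without WT_PD 3), with 1.32% without KO_PD 1. The share lower (0.961%) was 0.566% with median centring, 2.32% with the marker means, 2.16% with array weights, 1.56% and 4.43% within the lower and higher 8 numbers, and 0.459% without both columns. Leaving out 1 library gave 0.582% (without KO_PD 3) to 1.75% (without WT_PD 1), with 0.605% without WT_PD 4, 0.636% without WT_vehicle 4, 1.49% without KO_PD 2 and 1.5% without WT_vehicle 2. With the replicate number as a block the shares were 1.18% and 1.15%, and again 0 genes passed. Same-numbered libraries of different groups were also compared by their deviations from the group mean. The correlations ran from -0.53 to 0.73 over 24 pairs, 10 of them over 0.1. With 52.7% of the variance on 1 principal component, such values cannot tell whether same-numbered libraries share more than a number.

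Of 76 genes, 74 had a difference other than 0.00 at 2 decimals, and 51 of these had the opposite sign in no alternative. Zbtb16 (0.11 within the lower 8 numbers, -0.11 within the higher) and Map2k1 (-0.02 to 0.02) took both signs around 0.00. Within the lower 8 numbers the sign turned for Spry4 (-0.24), Dusp6 (0.12), Etv5 (0.07), Spry2 (-0.49), Fos (-0.23), Gfra1 (0.14), Nanos2 (0.18), Kit (-0.06), Ccnd1 (-0.12), Cdkn1a (-0.25), Eomes (0.01), Tssk6 (0.14), Odf1 (0.27), Plvap (0.13), Lhx1 (0.10), Nefl (0.04), Casp9 (0.01), Acta2 (-0.80), Myh11 (-0.61) and Mapk3 (-0.06). Within the higher 8 it turned for Etv4 (-0.03), Ccnd2 (-0.02) and Mki67 (-0.05), and without both WT columns for Spry2 (-0.06), Nanos2 (0.05) and Acta2 (-0.05). Quantile scaling gave Ccnd2 -0.01 and Myh11 -0.05, voom Acta2 -0.01, and the marker terms Acta2 -0.07 and Myh11 -0.01. Leaving out 1 library gave -0.04 to 0.14 for Spry4, -0.03 to 0.24 for Spry2, -0.06 to 0.23 for Fos, -0.09 to 0.03 for Nanos2, -0.02 to 0.05 for Ccnd2, -0.02 to 0.10 for Mki67, -0.21 to 0.37 for Acta2 and -0.17 to 0.36 for Myh11. List medians moved by over 1 SD within the lower and higher 8 for the stem cell (0.07, -0.45), GDNF-responsive (0.05, -0.39) and glycolysis (-0.11, 0.27) lists, within the lower 8 for ERK output (-0.18), within the higher 8 for retinoic acid (0.30, and 0.02 to 0.20 leaving out 1 library) and Leydig (0.55). The cause was not tested.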
